A study of Mus musculus with 6 samples.

Results

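Integrins, Icam1, Cd44 and Selplg were followed in the transcriptome of visceral adipose tissue (VAT) ILC2s cultured with DTA-1 or isotype control. The genes were taken by name for their role in adhesion, with earlier results of these data known: Icam1, Itgal, Itgb2, Itga4, Itgb1, Itgb7, Itgae, Itgav, Cd44 and Selplg, which are 10 of the 53278 genes in the table. ILC2s, the innate lymphocytes that secrete type 2 cytokines, were sorted from VAT of C57BL/6 mice aged 8 weeks that had received 3 intraperitoneal injections of 1 µg IL-33. The sort took lineage-negative cells positive for CD45, ST2 and CD117. All cells were then cultured with IL-2 (10 ng/mL) and IL-7 (10 ng/mL), and differed by the addition of DTA-1 (5 µg/mL), an agonistic antibody to the costimulatory receptor GITR, or of isotype control, a rat IgG2b. The labels and the methods give 48 h of culture, whereas the results text of the study gives a shorter time. Each group had 3 libraries made from 10 ng of RNA, and the headers of the isotype control columns name PBS. The labels do not say whether the 3 libraries of a group came from separate mice or cultures, so p-values measure only the spread between these libraries.

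Integrins are heterodimers of an α and a β chain that couple the cell surface to the actin cytoskeleton, and which α chain pairs with which β chain sets the ligand. Itgal and Itgb2 encode LFA-1, the receptor for ICAM-1. Itga4 encodes the α4 chain, which binds VCAM-1 when paired with β1 (Itgb1) and MAdCAM-1 when paired with β7 (Itgb7), whereas Itgae encodes αE, the β7 partner that binds E-cadherin. Itgav encodes αv, which binds RGD-containing matrix proteins and latent TGF-β. Cd44 encodes the hyaluronan receptor and Selplg encodes PSGL-1, the ligand for selectins. Icam1 is a target of the NF-κB pathway in many cell types, and GITR is a TNF receptor family member that signals through this pathway. These receptors govern how lymphocytes leave the blood, are kept in a tissue and contact neighbouring cells.

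Gene counts summed to 30569253 to 35131280 per library, so that a count of 0 allows up to 3 counts, or 0.0854 to 0.0981 CPM, for counting error alone. Levels are given as normalized counts, which are CPM after TMM scaling. All 13 ILC2 markers were detected in every library, 5 of them higher and 8 lower in DTA-1. They summed to 12080 to 13110 normalized counts in isotype control and to 13210 to 17360 in DTA-1, of which Il5 alone made up 5063 to 5493 and 5627 to 9695, while Icos was at 156 to 173 in isotype control and at 156.5, 99.0 and 98.4 in DTA-1. The library labelled DTA-1 replicate 1 stood apart from its group. The chi-square between libraries per degree of freedom was 7.69 to 8.86 between it and the isotype control libraries, and 20.5 and 21.35 between it and the other DTA-1 libraries. Isotype control libraries lay 8.98 to 13.1 from one another, and all these values are far above the value near 1 that counting noise gives. The libraries thus differed by more than counting noise. Whether any of them shared RNA or a culture cannot be told from these values. Whether the label of this library is right cannot be told from these files, and each member is therefore given with all 6 libraries and without it. Because the library was left out for its likeness to isotype control, p-values from the other 5 libraries are conditioned on that choice and too small, and intervals are too narrow. The test with all 6 libraries is the one the calls rest on.

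The upstream sequence of 3 members is shown first because these are the genes whose DTA-1 replicates 2 and 3 had an adjusted p under 0.05 against isotype control once DTA-1 replicate 1 was left out (a choice made from the values), Icam1 higher and Itga4 and Itgb7 lower. Sequences are from RefSeq on GRCm38.p6, in the direction of transcription, and end 1 base before the gene start in the deposited table. Capitals mark matches to GGAANNTCC (letters chosen to fit the known NF-κB site of the ICAM1 promoter), TATAAA (the TATA box) and GGGCGG (the core of the Sp1 site), searched on both strands. The stretches are Icam1 at chr9:21015690-21015984 (+ strand), Itga4 at chr2:79255176-79255425 (+ strand) and Itgb7 at chr15:102231936-102232185 (− strand).
Icam1: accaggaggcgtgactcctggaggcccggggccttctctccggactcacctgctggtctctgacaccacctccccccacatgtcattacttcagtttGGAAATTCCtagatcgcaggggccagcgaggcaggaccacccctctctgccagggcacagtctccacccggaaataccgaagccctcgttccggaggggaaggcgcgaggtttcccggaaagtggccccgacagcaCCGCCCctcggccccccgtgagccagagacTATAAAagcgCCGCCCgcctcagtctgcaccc
Itga4: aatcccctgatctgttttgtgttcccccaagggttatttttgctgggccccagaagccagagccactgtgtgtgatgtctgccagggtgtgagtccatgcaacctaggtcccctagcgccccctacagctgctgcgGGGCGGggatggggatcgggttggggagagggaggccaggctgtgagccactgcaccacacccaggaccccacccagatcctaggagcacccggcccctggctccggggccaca
Itgb7: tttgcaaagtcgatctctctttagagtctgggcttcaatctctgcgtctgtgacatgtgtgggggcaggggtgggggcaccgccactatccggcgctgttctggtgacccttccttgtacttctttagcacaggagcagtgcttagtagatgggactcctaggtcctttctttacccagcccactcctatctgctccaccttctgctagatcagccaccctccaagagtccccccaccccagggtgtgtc
The Icam1 stretch held GGAAATTCC, which reads the same on both strands, starting 198 bases before the gene start. It also held TATAAA at 32 bases and GGGCGG on the other strand at 62 and 22 bases before that start. The deposited Icam1 start lies 45 bases downstream of the RefSeq start, so its stretch has 295 bases and the others have 250. Counted from the RefSeq start, TATAAA and the nearer GGGCGG lie downstream of the start. Of 32851 RefSeq promoter windows, 4.26% held GGAANNTCC, 13.6% held TATAAA and 35.7% held GGGCGG. The Itga4 stretch held only GGGCGG, at 114 bases before the start, and the Itgb7 stretch held none of these letters. Windows were found for 6 of the 10 members, of which 5 held GGGCGG (all but Itgb7). The windows run past the start, and the GGGCGG matches of Itgav and Cd44 lie downstream of it. The shares of all windows also count matches past the start. Icam1 alone of the 6 held GGAANNTCC, letters chosen to fit the known NF-κB site of the ICAM1 promoter. The NF-κB consensus of 10 letters was in 8.46% of all windows and in 0 of the 6. A match describes letters in the window and is not evidence of binding.

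All 10 members passed the filter on low counts that left 14361 genes. With all 6 libraries, 7 members were higher and 3 lower in DTA-1, with a median log2 fold change of 0.11 beside −0.01 over all genes tested (48.1% higher and 51.9% lower). Differential expression (adjusted p under 0.05 and at least 1.5-fold) was called from edgeR's quasi-likelihood test, adjusted by Benjamini-Hochberg, and met by none of the 10 and by 0 of 14361 genes (0%). At an unadjusted p under 0.05 with the same fold limit, 1 member (Icam1) was called, against 337 genes (2.35%) overall. Once DTA-1 replicate 1 was left out, 1 of 10 members (Icam1) met the rule, against 111 of 14911 genes tested (0.744%), a count conditioned on that choice. With no fold limit, this fit gave 3 members an adjusted p under 0.05, against 253 genes (1.70%): Icam1 was higher (1.35% of all genes) and Itga4 and Itgb7 were lower (0.342%). Also in this fit, 8 of 10 members did not overlap between groups, against 31.3% of all genes. DESeq2's Wald test with all 6 libraries called none of the 10, against 25 of 25247 genes. In bulk RNA, fewer cells that use a gene and less RNA of that gene per cell cannot be told apart.

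**Figure D1:**
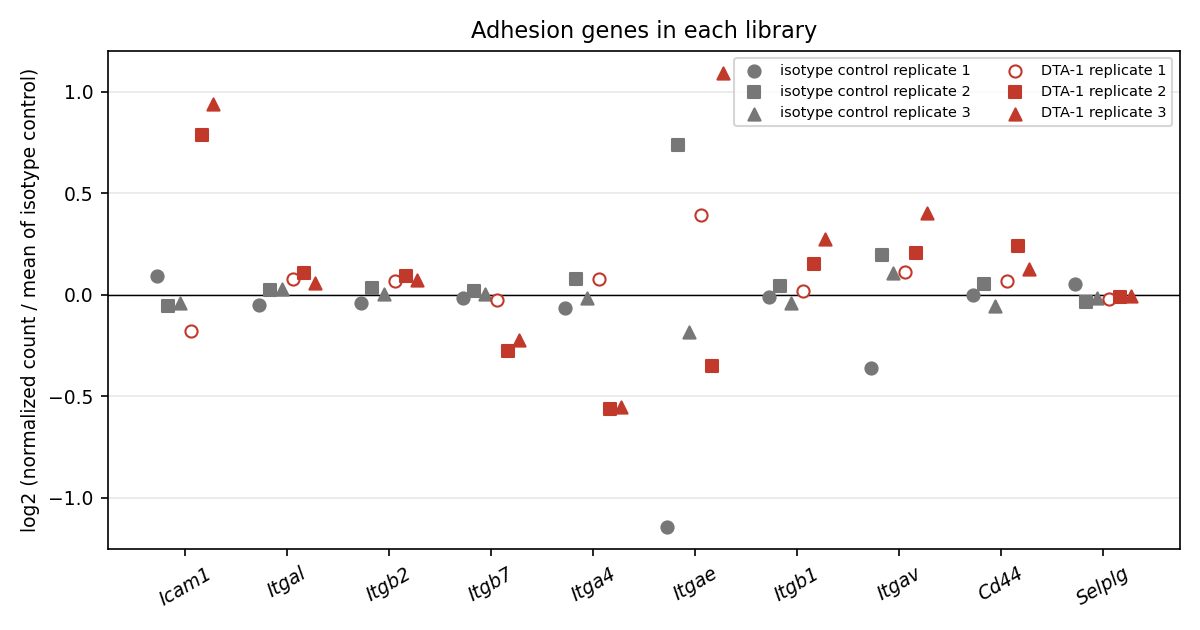
Levels from normalized counts (CPM after TMM scaling) of the 10 adhesion genes in the 3 isotype control and 3 DTA-1 libraries, with 1 point per library. Icam1, Itga4 and Itgb7 show DTA-1 replicates 2 and 3 on one side of every other library, while DTA-1 replicate 1 lies at or near the isotype control values. Itgb1, Itgav, Cd44 and Itgb2 also have DTA-1 replicates 2 and 3 above every other library, by smaller margins.

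Icam1, the ligand that LFA-1 binds on neighbouring cells, lies at chr9:21015985-21028817 (+ strand). It was at 70.4, 63.6 and 64.4 normalized counts in isotype control replicates 1, 2 and 3, and at 58.55, 114 and 127 in DTA-1 replicates 1, 2 and 3. DTA-1 replicates 2 and 3 were at 173% and 192% of the isotype control mean, and DTA-1 replicate 1, at 88.5% of it, was the lowest of the 6 libraries, so the groups overlapped. The isotype control mean of 66.2 ± 3.72 and the DTA-1 mean of 99.95 ± 36.4 (SD, n = 3) show the wide spread in DTA-1. With all 6 libraries the log2 fold change was 0.60 with a standard error of 0.23 (95% interval 0.07 to 1.13, edgeR adjusted p = 0.657). With DTA-1 replicate 1 left out, the library in which Icam1 was lowest, the log2 fold change was 0.87, or 1.82-fold (SE 0.08, interval 0.68 to 1.05), with an edgeR adjusted p of 0.000851 that is conditioned on this choice. Across all alternatives the adjusted p ranged from 0.000851 to 0.999, and it was under 0.05 in this one only. An antisense gene, AC159314.1, overlaps Icam1 but averaged 19.8 counts beside 2737 for Icam1.

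The genes with a level pattern most like that of Icam1 were found by Pearson's r of log2(normalized count + 1) over the 6 libraries, among 8722 genes with a mean of at least 10. They were Ptger4, a prostaglandin E2 receptor (r = 0.996), Ebi3, a cytokine subunit shared by IL-27 and IL-35 (0.9945), Cd74, the MHC class II invariant chain (0.992), Rasgrp4 (0.992) and Slc38a10 (0.992). Cd74 was at 20.8, 14.6 and 17.5 normalized counts in isotype control and at 14.9, 45.0 and 49.5 in DTA-1, so it had the same split between DTA-1 replicate 1 and replicates 2 and 3. Ptger4 was at 74.0, 68.6 and 70.0 in isotype control and at 64.9, 93.3 and 96.6 in DTA-1. Among the adhesion genes, Itgb1 had an r of 0.912 with Icam1 (rank 311 of 8722), and Itgb7 and Itga4 lay at the other end, with −0.948 and −0.988 (rank 8718). These r values describe 6 libraries in which DTA-1 replicates 2 and 3 differ from the other 4.

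Itgal, the α chain of LFA-1 (chr7:127296260-127335138), was at 433, 456 and 457 normalized counts in isotype control and at 474, 483 and 468 in DTA-1. Itgb2, its β chain (chr10:77530252-77565708), was at 619, 652 and 639 in isotype control and at 668, 680 and 670 in DTA-1. After TMM scaling every DTA-1 library, replicate 1 included, lay above every isotype control library for both chains, but the gap was small. Scaled by total counts instead, the groups overlapped for both chains, and the log2 fold change was 0.04 for each. With TMM scaling it was 0.08 for each chain (SE 0.06 for each), with 95% intervals of −0.04 to 0.21 for Itgal and −0.04 to 0.20 for Itgb2. The edgeR adjusted p was 0.786 for Itgal and 0.788 for Itgb2, and 0.567 and 0.528 when DTA-1 replicate 1 was left out, so neither gene passed the test. Both intervals lie inside a 1.5-fold change in either direction. Cd44 also had all DTA-1 libraries above isotype control and Itgb7 had all below. With TMM scaling, 4 of 10 members were thus without overlap between groups, against 11.3% of all genes tested (5.26% above and 6.03% below).

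The chains of LFA-1 kept a nearly fixed ratio to each other. Per kilobase of exon, Itgb2 was 3.01 to 3.08 times Itgal in the 3 isotype control libraries and 3.03 to 3.08 times in the 3 DTA-1 libraries, and the log2 ratio of Itgal to Itgb2 differed by 0.00 between the group means (exact permutation test, two-sided, p = 1). The log2 ratio of Icam1 to Itgal was higher in DTA-1 by 0.44 with all 6 libraries (exact permutation p = 0.4) and by 0.78 when DTA-1 replicate 1 was left out. With 3 libraries in each group this test cannot go below 0.1.

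**Figure D2:**
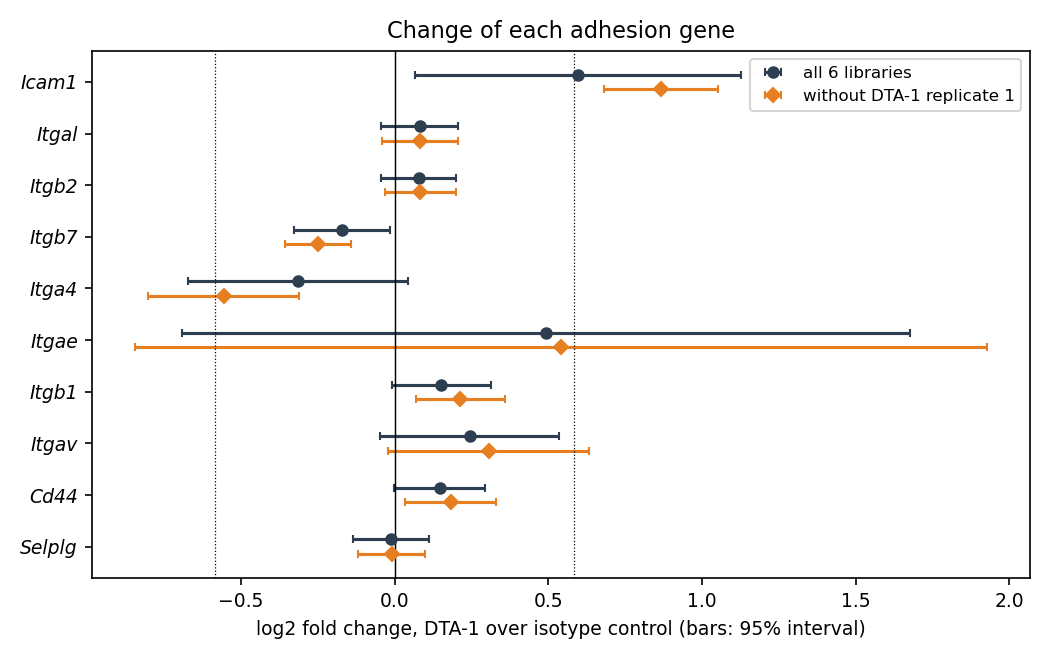
Log2 fold change of each adhesion gene in DTA-1 against isotype control (horizontal axis) with its 95% interval, for all 6 libraries and for the 5 that remain when DTA-1 replicate 1 is left out. Icam1 moves from 0.60 to 0.87 and Itga4 from −0.31 to −0.56 with narrower intervals, whereas Itgal, Itgb2 and Selplg stay where they were.

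Itga4, the α4 chain that pairs with β1 or β7 (chr2:79255426-79333123), was at 31.1, 34.4 and 32.2 normalized counts in isotype control and at 34.35, 22.0 and 22.2 in DTA-1. DTA-1 replicates 2 and 3 lay below every isotype control library and DTA-1 replicate 1 lay among them. The log2 fold change was −0.31 (SE 0.16, interval −0.67 to 0.05, edgeR adjusted p = 0.729) with all 6 libraries. Leaving out DTA-1 replicate 1, it was −0.56 (SE 0.11, edgeR adjusted p = 0.0391, conditioned in the same way), or 0.680 of isotype control, which is short of the 1.5-fold limit. Cerkl, on the opposite strand, shares 1124 exonic bases with Itga4, and whether the authors' counting used strand is not given in the sources used here. Cerkl averaged 129 counts beside 984 for Itga4, and its log2 fold change was 0.09 (0.14 when DTA-1 replicate 1 was left out).

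Itgb7, the β7 chain that pairs with α4 or αE (chr15:102215995-102231935, − strand), was at 1272, 1303 and 1290 normalized counts in isotype control and at 1264, 1064 and 1103 in DTA-1. Each of the 3 DTA-1 libraries was below the lowest isotype control library, replicate 1 by a small margin. The mean of 1288 ± 15.5 in isotype control compared with 1144 ± 105.9 in DTA-1 (SD, n = 3). With all 6 libraries the log2 fold change was −0.17 (SE 0.07, interval −0.33 to −0.02, edgeR adjusted p = 0.657). Leaving out DTA-1 replicate 1, it was −0.25 (SE 0.05, edgeR adjusted p = 0.036, likewise conditioned), or 0.841 of isotype control. Over all alternatives the adjusted p ranged from 0.036 to 0.999 for Itgb7 and from 0.0391 to 0.999 for Itga4.

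Itgae, the αE chain of the E-cadherin receptor (chr11:73090583-73147446), was low in all libraries. It was at 0.48, 1.77 and 0.935 normalized counts in isotype control and at 1.39, 0.833 and 2.26 in DTA-1, from 17 to 72 reads per library. The groups overlapped, and the interval of the log2 fold change was wide (0.49, −0.69 to 1.68, edgeR adjusted p = 0.878, and 0.770 when DTA-1 replicate 1 was left out). Haspin, a kinase gene on the opposite strand within Itgae, averaged 1155 counts beside 42.2 for Itgae. The genes share 0 annotated exonic bases, but without knowledge of strand the low Itgae counts are uncertain. The αE ligand E-cadherin (Cdh1) did not pass the filter on low counts, nor did Vcam1, and Madcam1 had 0 counts in all 6 libraries.

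Itgb1, the β1 chain that is shared by the largest number of α chains (chr8:128685654-128733200), was at 197, 205 and 193 normalized counts in isotype control and at 201, 220 and 240 in DTA-1. The ranges overlapped through DTA-1 replicate 1. Itgb1 had a log2 fold change of 0.15 (SE 0.07, interval −0.01 to 0.31, edgeR adjusted p = 0.702), and 0.21 (adjusted p = 0.166) without that library. Itgav, the αv chain (chr2:83724397-83806916), was at 59.97, 88.1 and 83.0 in isotype control and at 83.3, 88.8 and 101.7 in DTA-1. Isotype control replicate 1 was the low library here, and the log2 fold change of 0.24 (interval −0.05 to 0.54, edgeR adjusted p = 0.738) was within the spread of the replicates, as was 0.31 (adjusted p = 0.391) with DTA-1 replicate 1 left out. Gm13684, on the opposite strand, shares 634 exonic bases with Itgav and averaged 71.7 counts beside 2788 for Itgav.

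Cd44, the hyaluronan receptor (chr2:102811141-102901665, − strand), was at 185, 192 and 178 normalized counts in isotype control and at 194, 218 and 201.5 in DTA-1. The groups did not overlap, but the log2 fold change of 0.15 (SE 0.07) missed the threshold (edgeR adjusted p = 0.692, and 0.245 when DTA-1 replicate 1 was left out). Selplg, the selectin ligand PSGL-1 (chr5:113818536-113832644, − strand), was at 1755, 1654 and 1673 in isotype control and at 1671, 1682 and 1687 in DTA-1. The DTA-1 libraries lay inside the isotype control range. Its log2 fold change was −0.01 (edgeR adjusted p = 0.975, and 0.965 with DTA-1 replicate 1 left out), and the interval of −0.14 to 0.11 lies inside a 1.5-fold change in either direction.

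**Figure D3:**
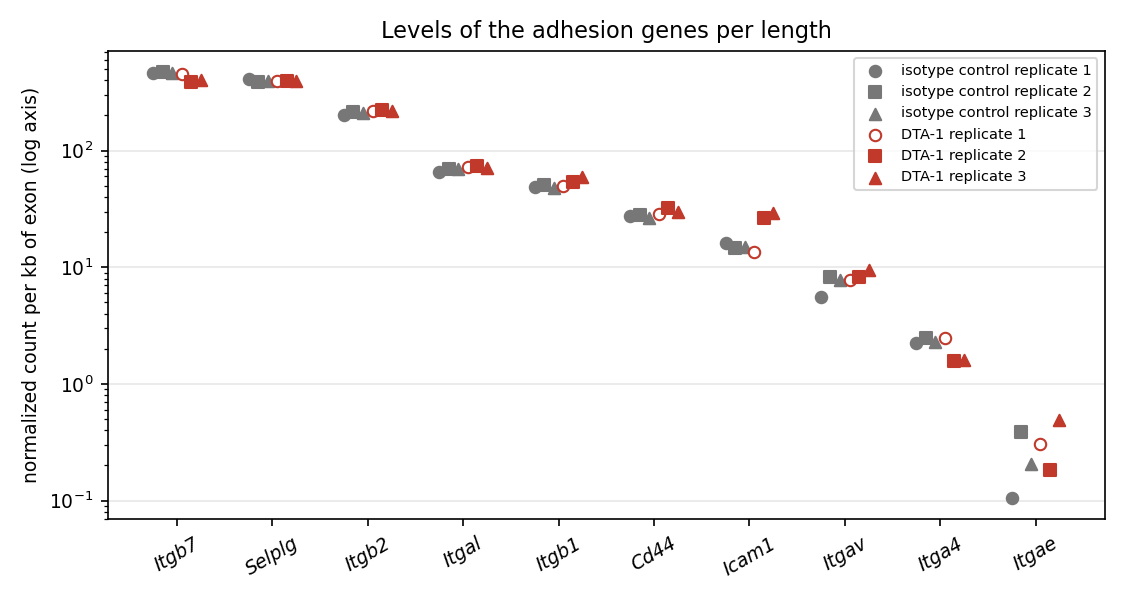
Level of each adhesion gene as normalized counts per kilobase of summed exon length (log axis), with 1 point per library. The order runs from Itgb7 (439 on average) and Selplg (395) to Itgae (0.279), and only the neighbouring pairs Itgb7 and Selplg, and Cd44 and Icam1, share part of their ranges.

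Levels of different genes were compared per kilobase of summed exon length. The isotype control mean of Itgb7 was 465 ± 5.60 normalized counts per kilobase and its DTA-1 mean 413 ± 38.2, while those of Selplg were 396.5 ± 12.6 and 393 ± 1.92 (SD, n = 3). Itgb2, Itgal, Itgb1, Cd44, Icam1, Itgav, Itga4 and Itgae followed, with means over the 6 libraries of 214.5, 70.3, 51.3, 28.7, 19.05, 7.83, 2.10 and 0.279. Of the 9 neighbouring pairs in this order, the ranges over libraries overlapped for Itgb7 with Selplg and for Cd44 with Icam1. With the longest protein-coding transcript as the length, Selplg (909) stood above Itgb7 (453) and the rest of the order was as before. Of the 10 members, β7 and PSGL-1 thus had the most transcript in both groups, by either length.

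The β7 chain had far more transcript than its α partners. Per kilobase, Itgb7 was 165.1 to 197 times the sum of Itga4 and Itgae in isotype control and 165.2 to 218 times in DTA-1, and 121 to 160 times with the longest coding transcript as the length. The β1 chain was 20.4 to 21.7 times Itga4 in isotype control. In DTA-1 it was 20.04 times Itga4 in replicate 1, and 34.2 and 37.0 times in replicates 2 and 3 (exact permutation p = 0.4 with all 6 libraries). Of the β partners of αv, Itgb3, the β3 chain of the vitronectin receptor, was at 59.8 ± 4.33 per kilobase with isotype control and 55.1 ± 1.32 with DTA-1 (SD, n = 3), beside 1.23 ± 0.237 and 1.63 ± 0.632 for Itgb5. Itgb6 and Itgb8 did not pass the filter, with at most 1 and 9 reads in a library. Itgb3 was 7.497 to 10.15 times Itgav in isotype control and 5.79 to 6.96 times in DTA-1, without overlap (exact permutation p = 0.1). Itgb3 was close to Itgb1, which also pairs with αv, at 1.17 to 1.29 times its level in isotype control and 0.930 to 1.095 times in DTA-1 (exact permutation p = 0.1), so that in DTA-1 the order of the pair differed between libraries.

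**Figure D4:**
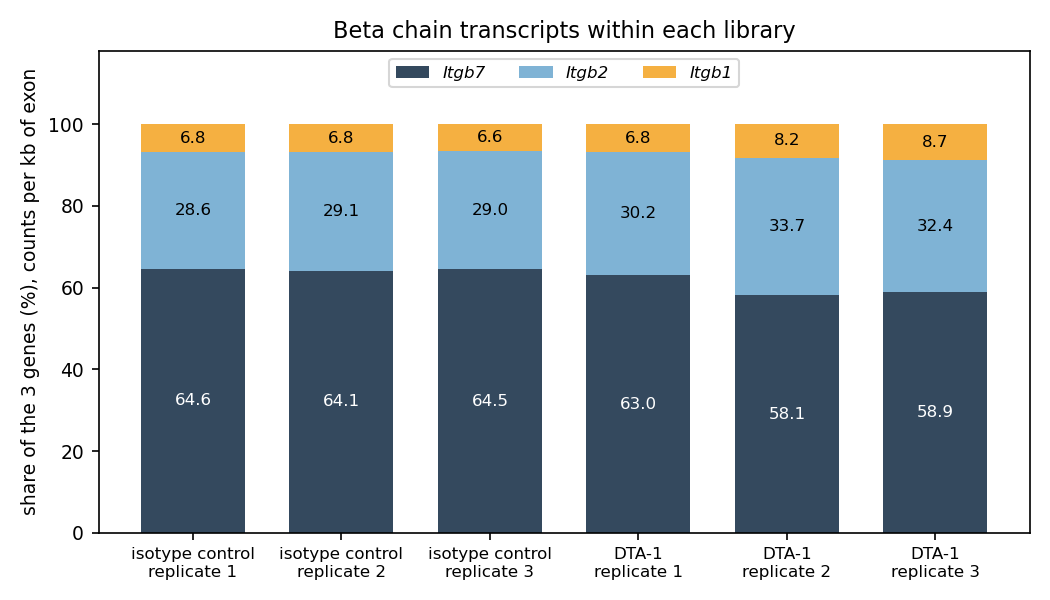
Share of Itgb1, Itgb2 and Itgb7 in their summed level per kilobase (percent, vertical axis) in each of the 6 libraries. DTA-1 replicates 1, 2 and 3 have an Itgb7 share of 63.0%, 58.1% and 58.9%, below the 64.1% to 64.6% of isotype control.

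Within each library, the β chains Itgb1, Itgb2 and Itgb7 were set against one another as shares of their sum per kilobase, which does not depend on scaling between libraries. Itgb3, at 57.4 per kilobase on average beside 51.3 for Itgb1, was not included, so the shares do not cover all β chains. The Itgb7 share was 64.6%, 64.1% and 64.5% in isotype control, against 63.0%, 58.1% and 58.9% in DTA-1, lower in 3 of 3 DTA-1 libraries than in any isotype control library. The Itgb2 share was 28.6%, 29.1% and 29.0% in isotype control, against 30.2%, 33.7% and 32.4% in DTA-1, higher in 3 of 3. The Itgb1 share was 6.81%, 6.84% and 6.56% in isotype control, against 6.80%, 8.17% and 8.71% in DTA-1, with replicate 1 inside the isotype control range. The differences between group means were −4.39, 3.23 and 1.16 percentage points for Itgb7, Itgb2 and Itgb1, with exact permutation p values of 0.1, 0.1 and 0.3 (two-sided, 20 regroupings), of which 0.1 is the smallest possible. With DTA-1 replicate 1 left out they were −5.90, 4.19 and 1.70. The log2 ratio of Itgb7 to Itgb1 was 2.69, 2.67 and 2.74 in isotype control, against 2.65, 2.27 and 2.20 in DTA-1, so the separation was again small in replicate 1 and larger in replicates 2 and 3. Over the 13 ratios and shares compared within libraries, the smallest exact permutation p of 0.1 became 0.217 after Benjamini-Hochberg adjustment, and none passed a threshold of 0.05.

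The surrounding adhesion machinery was described with 10 further lists, of which 73 genes passed the filter. With all 6 libraries, 35 were higher and 38 lower in DTA-1, and 0 were differentially expressed by edgeR's quasi-likelihood test. At an unadjusted p under 0.05 with a 1.5-fold change, 1 was higher and 1 lower, against 2.35% of all genes tested. With DTA-1 replicate 1 left out, 2 of 78 genes tested met the rule for differential expression, Pecam1 and Mmp9, against 0.744% of all genes, and the p-values of this fit are conditioned as above. Of the other α chains, 6 of 14 were tested (4 higher and 2 lower), with Itga6, a laminin receptor chain, the highest at 48.6 ± 3.21 and 53.75 ± 4.79 normalized counts in isotype control and DTA-1 (log2 fold change 0.15). Of the other β chains 3 of 6 were tested (1 higher and 2 lower). Itgb3 was at 334.5, 382 and 342 in isotype control and at 318, 333.5 and 323 in DTA-1, with all DTA-1 libraries below isotype control (log2 fold change −0.12, edgeR adjusted p = 0.738).

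Of the integrin ligands on cells, 6 of 11 were tested (1 higher and 5 lower, median log2 fold change −0.21). Icam2, a further LFA-1 ligand, was at 24.2 ± 1.72 and 26.8 ± 1.07 normalized counts (log2 fold change 0.15) in isotype control and DTA-1. Pecam1, the homophilic receptor CD31, was at 24.4, 18.4 and 22.2 in isotype control and at 18.3, 10.4 and 10.8 in DTA-1. It was below isotype control in all DTA-1 libraries (log2 fold change −0.72, SE 0.21, edgeR adjusted p = 0.627), and the log2 fold change was −1.03 (adjusted p = 0.0132) with DTA-1 replicate 1 left out. Pecam1 is also an endothelial marker and made up most of that list, which summed to 19.9 to 27.1 normalized counts in isotype control and 12.3 to 20.4 in DTA-1. Of the other endothelial markers, Egfl7 was at 1.48 to 2.60, and Cdh5 and Emcn were at 0 in every library. Kdr, Tek, Tie1 and Vwf were above 0 in some libraries, at most 0.596. Whether Pecam1 came from endothelial cells was not tested.

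Of the genes that activate integrins from inside the cell 13 of 15 were tested (3 higher and 10 lower, median −0.08), and the most abundant, Rap1b, was at 820.1 and 763 normalized counts (log2 fold change −0.10). Fermt3, kindlin-3, which binds the tails of β chains, was named after its values were seen: 622, 613 and 612 in isotype control, against 630, 790 and 819 in DTA-1. It was higher in 3 of 3 DTA-1 libraries (log2 fold change 0.28, SE 0.09, edgeR adjusted p = 0.627), and the log2 fold change was 0.39 (adjusted p = 0.00524) with DTA-1 replicate 1 left out. Of the brakes on adhesion 9 of 9 were tested (3 higher and 6 lower), with Cytip, which limits LFA-1 adhesion, at 504 and 499. Of the links from integrins to actin 13 of 16 were tested (9 higher and 4 lower, median 0.09), and Actn4, a crosslinker of actin, was at 691 and 735. Flna, filamin A, which ties β chains to actin, was also named after its values were seen: it was at 507 ± 19.0 and 568 ± 86.5 (SD, n = 3), which differ by 0.16 on the log2 scale (edgeR adjusted p = 0.749), and by 0.28 (adjusted p = 0.0391) with DTA-1 replicate 1 left out. All 3 ezrin, radixin and moesin genes were higher without passing the test, with Msn, moesin, at 1435 and 1543 (log2 fold change 0.10).

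Of the matrix and hyaluronan genes 5 of 10 were tested (1 higher and 4 lower), with Hmmr, a hyaluronan-binding protein of dividing cells, at 102.5 and 113 normalized counts. Of the selectins and the enzymes that modify their ligands 9 of 11 were tested (5 higher and 4 lower), with Tpst2, which sulfates tyrosines, at 155.5 and 148. The 6 proteases that shed adhesion receptors were all tested, and 5 were higher and 1 lower (median 0.22). Adam8 was at 496 and 582 on average (log2 fold change 0.23), and the log2 fold change was 0.36 (edgeR adjusted p = 0.0259) with DTA-1 replicate 1 left out. Mmp9, a gelatinase, was at 0.594, 0.969 and 0.425 in isotype control and at 1.07, 16.5 and 19.8 in DTA-1 (log2 fold change 4.23, SE 1.03, edgeR adjusted p = 0.627). Its log2 fold change was 4.77 (SE 0.30, adjusted p = 9.08e-05) in the fit of 5 libraries.

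**Figure D5:**
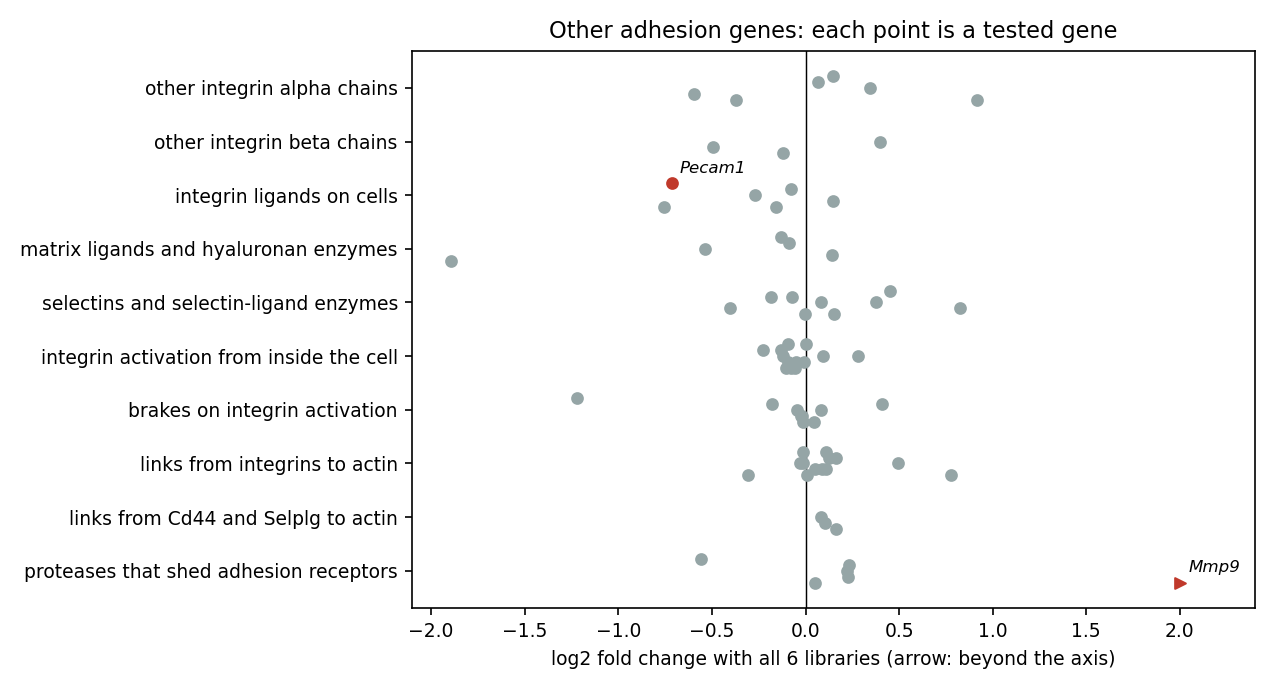
Log2 fold change in DTA-1 against isotype control (horizontal axis) of every tested gene in the 10 further adhesion lists, with all 6 libraries and 1 point per gene. List medians lie between −0.21 (integrin ligands on cells) and 0.22 (proteases), and most genes lie close to 0.

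Marker lists of other cells summed to levels below most of the adhesion genes, and the T cell and dendritic cell lists lay between the levels of Itga4 and Icam1. The T cell list summed to 41.1 to 54.4 normalized counts in isotype control and 47.8 to 51.95 in DTA-1, mostly Cd3g. Cd3e was at 2.34 to 3.72 over all libraries and Cd8a at 0. The macrophage list summed to 6.44 to 12.25 and 8.67 to 11.9, and the fibroblast list to 2.82 to 9.07 and 0.897 to 4.24. Of the macrophage genes, Cd68 was at 3.96 to 10.6, Adgre1 at 0.256 to 3.77 and C1qb at 0. The dendritic cell list summed to 48.4 to 50.3 and 46.7 to 52.1, mostly Xcr1. Zbtb46 was at 0.4805 to 2.43, Cd83 at 0.624 to 2.23 and Clec9a at 0. The summed ranges of the groups overlapped for the T cell, macrophage, dendritic cell, fibroblast and endothelial lists alike. All 5 tested fibroblast genes and both tested endothelial genes were lower in DTA-1. With DTA-1 replicate 1 left out, 1 fibroblast gene and 1 endothelial gene (Pecam1) had an edgeR adjusted p under 0.05. So did 4 of the 13 ILC2 markers, against 1.70% of all genes in this fit, whose p-values are conditioned as above. No T cell, macrophage or dendritic cell gene did. The part of such cells in the levels of the adhesion genes was not tested.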

How the data were processed

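RNA from 6 libraries of VAT ILC2s was sequenced, 3 with DTA-1 and 3 with isotype control. The submitters' processing notes name bcl2fastq 2.17.1.14, STAR 2.5.3a, Partek and the build mm10; the annotation release and the use of strand are not given in the sources used here. The authors deposited expected counts per gene, that is estimated reads that need not be whole (77.8% of values were exactly whole, the 60.9% at 0 included, and 43.1% of those above 0), without normalization. They were rounded here. Gene ends were taken 1 base before the deposited stop. Of 49721 symbols shared with GENCODE mouse release M21, 47717 then had its start and end, as did 9 of the 10 members. Exon lengths and shared exonic bases were taken from that release.

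Genes were filtered by filterByExpr, scaled by TMM and compared between DTA-1 and isotype control, without covariates, by the quasi-likelihood F test of edgeR 4.0.16 under R 4.3.3 (Benjamini-Hochberg adjustment, common dispersion 0.0256). Alternatives used DESeq2 1.42.0, limma 3.58.1, other scalings and filters, the replicate number as a block, and each library left out. Same-numbered libraries did not deviate together (correlations −0.007, −0.003 and 0.015), which cannot exclude that they were paired, because DTA-1 replicate 1 stands apart from its group. Ratios within a library were compared by exact permutation tests. Python 3.11.15, numpy 2.4.6, pandas 2.3.3 and matplotlib 3.10.9 served for tables and plots. The fit was first tested on simulated counts.

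Named were the 10 members, the most abundant tested gene of each further list, list genes differentially expressed in either fit, and the 5 genes nearest to Icam1 in pattern; Fermt3, Flna, Cerkl, Haspin and the integrin partners of members were added after their values were seen. The members and lists were chosen with earlier results of these data known.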

Additional observations from a re-analysis of the deposited data

How the results depend on the processing

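Direction and side of the threshold were kept by Itgal, Itgb2, Itgb1, Itgae, Itgav and Cd44 under all 13 alternatives, though leaving out 1 library moved Itgae between 0.07 (without DTA-1 replicate 3) and 1.07 (without isotype control replicate 2), Itgav between 0.10 (without isotype control replicate 1) and 0.35, and Itgb1 between 0.09 (without DTA-1 replicate 3) and 0.21. With 1 library left out, the log2 fold change ranged from 0.39 to 0.87 for Icam1, from −0.56 to −0.20 for Itga4 and from −0.25 to −0.12 for Itgb7, and only leaving out DTA-1 replicate 1 brought their adjusted p under 0.05; that library was left out for its values, so these p-values are too small. Selplg ranged from −0.03 to 0.02 and was above 0 (0.02) without isotype control replicate 1. Pecam1, Fermt3, Adam8 and Flna had adjusted p values of 0.0132 to 0.999, 0.00524 to 0.999, 0.0259 to 0.999 and 0.0391 to 0.999, each under 0.05 only without DTA-1 replicate 1. For Mmp9 they were 9.08e-05 to 0.997, under 0.05 in 2 of 14 settings.

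Differentially expressed genes numbered 0 of 14361 with all 6 libraries, 25 of 25247 by DESeq2's Wald test and 2 of 25251 with no filter. They numbered 337 by an unadjusted p, and 0 to 111 with 1 library left out. With the replicate number as a block there was 1, and the labels do not say whether equal numbers pair the samples. Among the members the count was 0, or 0 to 1 with 1 library left out. The count at an unadjusted p with 1.5-fold, 1 as reported, was 0 with total counts, DESeq2's Wald test, limma-trend, no filter, at least 10 counts in every library or the replicate block, and 0 to 1 with 1 library left out.

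The shares of β chains kept their direction with no length correction, with the longest coding transcript (chosen after seeing the data) and with each library left out. Itgae rests on 17 to 72 reads per library, and its interval of −0.69 to 1.68 is wide. Depth in mapped reads is known only from the summed counts, and 3 libraries a group limit the exact tests to p = 0.1.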
